A study of Mus musculus with 8 samples.

Results

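Expression of 10 genes of the actin cytoskeleton was followed in mouse cortex next to an aspiration cavity. They encode the actin monomers themselves (Actb, Actg1), proteins that hold or deliver monomers (Tmsb4x, Tmsb10, Pfn1), a filament-severing protein (Cfl1), 3 subunits of the Arp2/3 complex (Arpc1b, Arpc2, Arpc3) and a coronin (Coro1a). They are identified by gene symbol, with no threshold on their values, and all 10 were found among the 17644 gene rows of the deposited table. Expression was measured by cap analysis of gene expression (CAGE). This method reads 1 tag from each capped 5' end of RNA, so that levels can be set side by side between genes without a correction for length. Values are CPM, tags scaled to a common total for each library.

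The animals were 11-week-old male C57BL/6NCrSlc mice in which a small cavity was aspirated from the motor cortex, and tissue within 1.0 mm of the cavity was collected. In the 1-week group (n = 4) the brain was taken 1 week after the lesion, and in the no-delay group (n = 4) it was taken immediately after it. The brain was injured in both groups, so the comparison sets a cavity that was 1 week old against a fresh one and not against uninjured cortex. The title of the series concerns the engraftment of transplanted human neurons, and no graft is named for these samples.

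Actin exists in cells as monomers and as filaments, and motile cells push their membrane forward by adding monomers to filament ends at the leading edge. Thymosins bind monomers and keep them in reserve, profilin delivers them to growing ends, cofilin cuts old filaments, and the Arp2/3 complex starts new branches on existing ones. In injured brain these genes are known for their part in the movement and phagocytosis of microglia and macrophages, the change of shape of astrocytes, and the dendritic spines of neurons.

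Of the 10 genes, 4 were higher at 1 week, 0 were lower and 6 were not called. The 4 were Arpc1b (4.58-fold), Pfn1 (1.59-fold), Actb (1.32-fold) and Tmsb4x (1.21-fold), as ratios of mean CPM. A gene was called where limma's test on log2(CPM + 1), with p-values adjusted over the 14718 genes tested, gave an adjusted p under 0.05. Among all genes tested, 36.8% were called, 23.4% as higher and 13.4% as lower. The median log2 fold change (1 week over no delay) of the 10 genes was 0.21, against 0.06 over all genes tested. All 10 genes passed the filter on low values in every library. The labels do not say that each sample came from its own animal, so the p-values speak of the variation among these samples alone.

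Summed over the gene rows, the libraries held 8278855 to 13998941 reads, as recovered from the CPM values. The lowest sum was that of the 1-week library tagged acagtg. Reads outside the gene rows are not known. Libraries are named here by the 6-base tag in their column name, and values are given for the tag acagtg first, then for atcacg, next for cgatgt and last for tgacca in both groups. A further 3-base tag was the same in all columns of a group and different between the groups, so group and that tag cannot be told apart. Markers of several non-neuronal cell types moved with the groups, while the sums of others overlapped. All 13 microglial markers were called higher and summed to 1578 to 2232 CPM at 1 week, against 494 to 502.9 CPM with no delay. All 8 astrocyte markers were called higher, with sums of 3629 to 4264 CPM at 1 week and 1648 to 1880 CPM with no delay. Of 9 monocyte and macrophage markers, 4 passed the filter on low values, and these 4 were called higher. That filter could be met by the 1-week values alone. All 9 together, tested or not, summed to 112.3 to 312.4 CPM at 1 week and 10.2 to 14.3 CPM with no delay. Of 9 neuronal markers 2 were called lower and 7 were not called, with sums of 6184 to 6594 CPM at 1 week and 6796 to 7633 CPM with no delay. Of 7 tested markers each, 5 of oligodendrocytes, 6 of endothelium, 6 of fibroblasts and 4 of smooth muscle and pericytes were called higher and 0 lower. The oligodendrocyte sums overlapped, at 2345 to 3968 CPM at 1 week and 1475 to 3346 CPM with no delay. The 4 neutrophil markers in the table summed to 1.25 to 5.07 CPM at 1 week and 0.71 to 12.6 CPM with no delay, and 8 T and B cell markers to 2.73 to 5.91 CPM at 1 week and 1.64 to 3.02 CPM with no delay, where 2 of them were at 0 in all libraries. Only 1 marker of each of these lists was tested, and the neutrophil marker was not called while the T and B cell marker was called higher. None of the 5 red blood cell genes was called, with sums of 348 to 5361 CPM at 1 week and 659 to 1562 CPM with no delay. In bulk tissue, fewer cells of a type and less RNA per cell cannot be told apart.

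**Figure D1:**
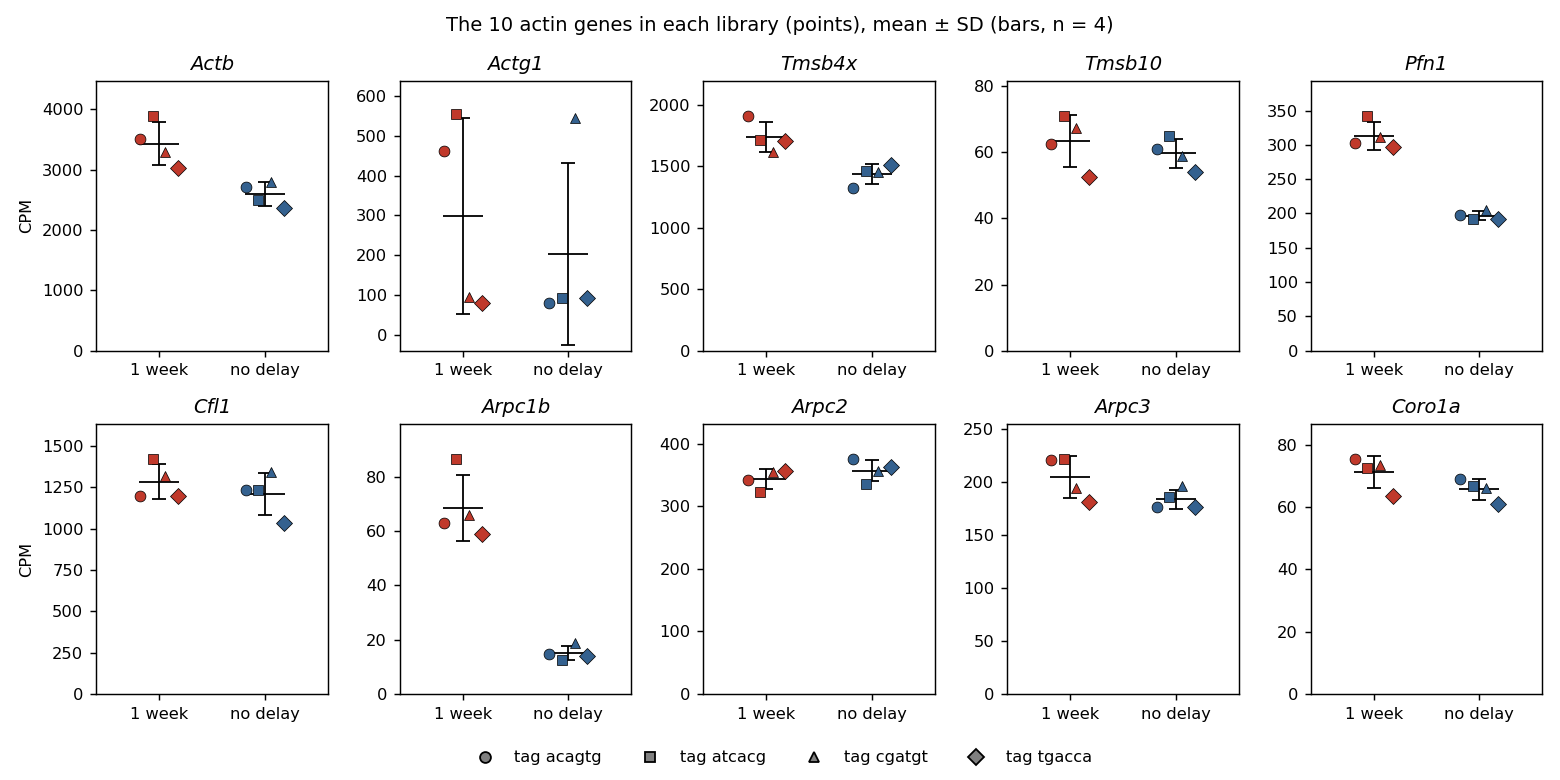
CPM of each of the 10 genes in every library (points, 1 symbol per library tag), with the mean and SD of each group (n = 4). The groups do not overlap for Actb, Tmsb4x, Pfn1 and Arpc1b, and Actg1 lies at 462 to 554 CPM in 3 libraries and at 79.7 to 94.2 CPM in the other 5.

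Promoter windows from RefSeq (build GRCm38.p6, 250 bases before to 50 after an annotated start) were matched for 9 of the 10 genes, 12 windows in all. Actb had no window there. The deposited values rest on another build, mm9, so these windows give context and no position of a tag. The windows of 4 genes are shown, all on the gene's own strand: Arpc1b, the gene of the 10 with the largest fold change, its paralog Arpc1a, which encodes the alternative form of the same subunit, Pfn1, and Actg1, which shares 5' sequence with a pseudogene row. Capitals mark matches to the motifs described after the sequences.
Arpc1b, chr5:145114006-145114305, plus strand: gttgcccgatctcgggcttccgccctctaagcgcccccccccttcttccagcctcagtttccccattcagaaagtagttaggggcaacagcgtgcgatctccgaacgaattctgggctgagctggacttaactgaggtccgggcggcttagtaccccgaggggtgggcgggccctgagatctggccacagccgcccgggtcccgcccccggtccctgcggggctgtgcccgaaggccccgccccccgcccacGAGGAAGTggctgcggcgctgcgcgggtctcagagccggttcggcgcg
Arpc1a, chr5:145083619-145083918, plus strand: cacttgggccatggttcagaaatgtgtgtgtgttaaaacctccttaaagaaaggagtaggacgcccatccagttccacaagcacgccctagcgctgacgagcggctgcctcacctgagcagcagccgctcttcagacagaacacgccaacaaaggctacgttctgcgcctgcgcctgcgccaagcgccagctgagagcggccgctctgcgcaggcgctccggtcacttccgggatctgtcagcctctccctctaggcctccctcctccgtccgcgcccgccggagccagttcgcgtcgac
Pfn1, chr11:70654601-70654900, minus strand: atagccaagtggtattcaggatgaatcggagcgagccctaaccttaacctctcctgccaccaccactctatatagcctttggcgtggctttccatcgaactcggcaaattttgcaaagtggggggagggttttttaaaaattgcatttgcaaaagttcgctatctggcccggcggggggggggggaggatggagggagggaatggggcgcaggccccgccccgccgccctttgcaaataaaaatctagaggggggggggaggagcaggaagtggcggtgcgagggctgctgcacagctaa
Actg1, chr11:120348446-120348745, minus strand: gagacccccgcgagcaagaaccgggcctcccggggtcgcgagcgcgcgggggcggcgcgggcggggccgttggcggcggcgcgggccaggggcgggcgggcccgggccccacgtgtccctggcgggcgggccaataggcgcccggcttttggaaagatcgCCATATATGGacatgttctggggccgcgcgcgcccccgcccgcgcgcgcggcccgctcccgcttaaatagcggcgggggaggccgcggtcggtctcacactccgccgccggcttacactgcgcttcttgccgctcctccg

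The search covered a pair of motifs on both strands. The CArG box is the site of serum response factor, a known regulator of actin genes, and GAGGAAGT is a purine-rich sequence of the kind bound by PU.1 and other ETS factors of blood and microglial cells. No overlap between the motifs was possible at the matches found. The Actg1 window held a CArG box, 90 to 81 bases before the start, and a CArG box was present in 1.63% of the 32851 windows in the table. The Arpc1b window held GAGGAAGT at 2 to 9 bases after the start, and 3.2% of windows held that motif. Neither motif was found in these letters in the Arpc1a and Pfn1 windows, nor in that of Tmsb4x. The Arpc1b window was 69.3% G and C with 29 CpG, and the Arpc1a window was 63.0% G and C with 26 CpG.

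Beta-actin was the most abundant of the 10 and was higher at 1 week. Actb, which encodes the cytoplasmic actin that predominates in motile cells, had 3508, 3884, 3299 and 3028 CPM at 1 week, against 2717, 2503, 2796 and 2370.2 CPM with no delay. The lowest 1-week value exceeded the highest no-delay value, as it did for 22.7% of all genes tested. In either direction, 34.7% of all genes tested had groups without overlap. The means were 3430 ± 361 CPM at 1 week and 2596 ± 195 CPM with no delay (SD, n = 4 each). The log2 fold change was 0.40 ± 0.10 (SE), with an adjusted p of 0.00967 by limma. After quantile normalization of the libraries the adjusted p was 0.0544, and the call was lost.

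Gamma-actin gave a pattern of another kind. Actg1, the second cytoplasmic actin, had 462, 554, 94.2 and 79.7 CPM at 1 week, against 80.1, 92.3, 545 and 91.2 CPM with no delay. Of the 8 libraries 3 were high and 5 were low, and both levels occurred in both groups. No library lay between the levels. Its log2 fold change was 0.59 with an SE of 0.69 and a 95% interval of -0.91 to 2.10, and limma did not call it (adjusted p = 0.533). With 1 library left out, that value ran from 0.13 without the 1-week library atcacg to 1.25 without the no-delay library cgatgt, and the gene stayed uncalled. Of 6948 genes with a mean of 30 CPM or more, 20 had a gap of at least 4-fold between neighbouring libraries of a group, and 8 of these had it in both groups. Among those 20, no other gene was high in those same 3 libraries and low in the other 5.

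The reads of Actg1 were complementary to those of a pseudogene row. The 75 bases at 2 of the 5 annotated Actg1 5' ends matched 6 processed pseudogenes at 95% identity or more, in GENCODE M21 transcripts. One of the 6, Gm12715, has a row in the table, and its best match was 100% over 75 bases. Gm12715 had 1246, 1226, 1640.4 and 1617 CPM at 1 week, against 1502, 1428, 1091 and 1466 CPM with no delay. It was lowest in the 3 libraries in which Actg1 was highest. The search used annotated transcript models only, of which the one of Gm12715 spans 1128 bases and the longest of Actg1 1952 bases.

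The sum of both rows varied little. Actg1 plus Gm12715 gave 1708, 1780.3, 1735 and 1696 CPM at 1 week, against 1582, 1520.1, 1636 and 1557 CPM with no delay. The groups of sums did not overlap, with means of 1730 ± 37.2 CPM at 1 week and 1574 ± 48.7 CPM with no delay (SD, n = 4 each). Actg1 took 27.1%, 31.1%, 5.43% and 4.7% of that sum at 1 week and 5.06%, 6.07%, 33.3% and 5.86% with no delay. For the sum, the log2 fold change was 0.14 ± 0.07 (SE), with a 95% interval of -0.02 to 0.29 and an adjusted p of 0.152 in limma, so gamma-actin was not called in this form either. How the authors' counting treated tags that match both places is not given in the sources used here. This sum was chosen after the data were seen.

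**Figure D2:**
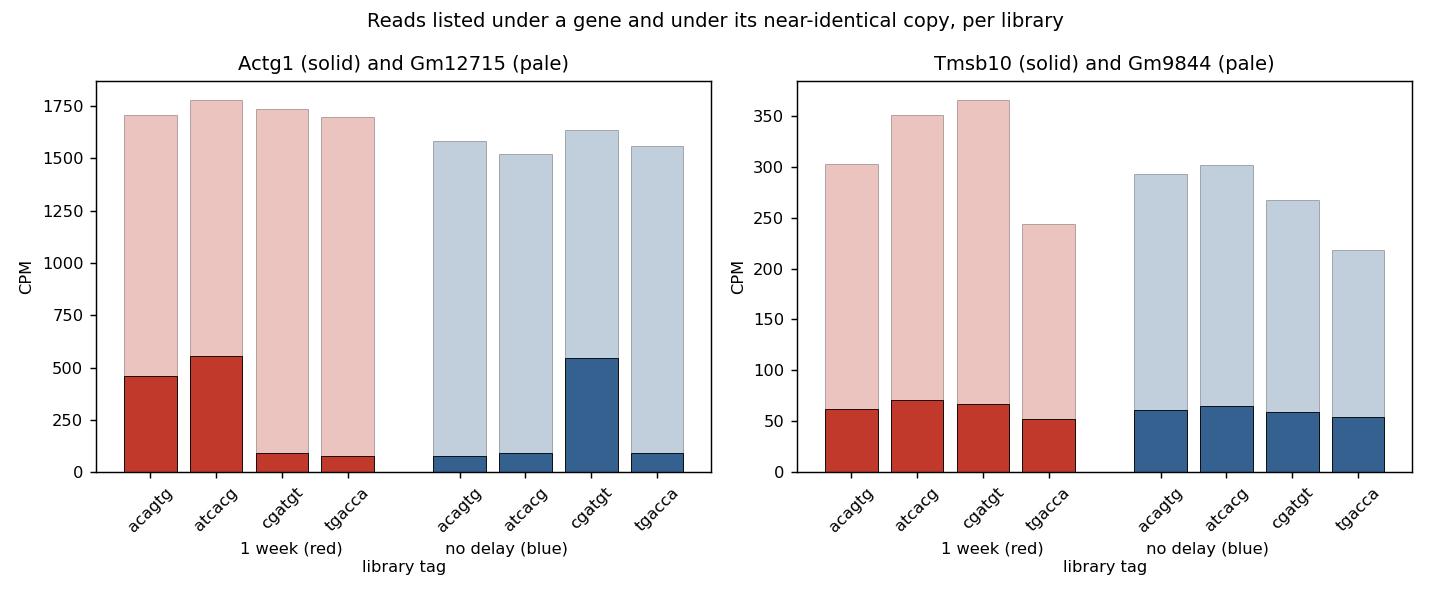
Stacked bars of CPM per library for Actg1 and Gm12715 (left) and for Tmsb10 and Gm9844 (right), with the 1-week libraries in red and the no-delay libraries in blue. The Actg1 part of the bar is large in 3 libraries, while the whole bar runs from 1520.1 to 1780.3 CPM over all 8.

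Among the monomer-binding proteins, the profilin gene Pfn1 changed most. Pfn1, the form found in most tissues, had 302, 342, 311 and 297 CPM at 1 week, against 197, 192, 206 and 192 CPM with no delay. The groups stood far apart in relation to their spread, with 313 ± 20.1 CPM at 1 week and 197 ± 6.43 CPM with no delay (SD, n = 4 each). This is a log2 fold change of 0.67 ± 0.06 (SE), with an adjusted p of 5.7e-06 by limma. The call held in all 18 alternative analyses of the fit.

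Its paralog was not called. Pfn2, the profilin that predominates in neurons, had 493, 528, 531 and 540.1 CPM at 1 week, against 540, 564, 573 and 580.04 CPM with no delay. The groups overlapped in a single value. Pfn2 had a log2 fold change of -0.11 with a 95% interval of -0.24 to 0.02 (adjusted p = 0.18 by limma), and it was called lower with median-of-ratios scaling and with DESeq2. Pfn1 made up 35.5% to 39.3% of the reads of both profilins at 1 week and 24.9% to 26.8% with no delay. The log2 ratio of Pfn1 to Pfn2 within a library was -0.74 ± 0.10 at 1 week and -1.52 ± 0.07 with no delay, a difference of 0.78 or 1.71-fold. The exact 2-sided permutation test gave p = 0.0286, the smallest that 4 samples against 4 allow, and 0.0643 after adjustment over the 9 ratios computed. Pfn1 alone already separated the groups and Pfn2 varied little, so the p-value of the ratio adds nothing to that.

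The thymosins bind monomers and hold them back from filaments. Tmsb4x, the thymosin abundant in microglia and other myeloid cells, had 1909, 1718, 1617 and 1710.4 CPM at 1 week, against 1323, 1463, 1453 and 1514 CPM with no delay. The groups did not overlap, although the lowest 1-week library lay close to the highest no-delay library. The means were 1739 ± 123 CPM at 1 week and 1438 ± 81.2 CPM with no delay (SD, n = 4 each), a log2 fold change of 0.27 ± 0.08 (SE) with an adjusted p of 0.0203 by limma. This call was the least secure of the 4. It was lost in 6 of the 18 alternatives: with TMM scaling (adjusted p = 0.0825), median-of-ratios scaling (0.0955), quantile normalization (0.0626), edgeR (0.0536), without the no-delay library acagtg (0.0515) and without the 1-week library acagtg (0.0579).

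Tmsb10, a related thymosin, had 62.6, 70.9, 67.2 and 52.6 CPM at 1 week, against 61.0, 64.7, 58.8 and 54.1 CPM with no delay. The groups overlapped, and limma did not call the gene (log2 fold change 0.08, 95% interval -0.12 to 0.28, adjusted p = 0.54). One of its 4 annotated 5' ends is identical over 65 bases to Gm9844, which has a row of its own. The sum of the rows was 316 ± 54.7 CPM at 1 week and 269.8 ± 37.4 CPM with no delay (SD, n = 4 each), and Tmsb10 took 18.4% to 24.8% of it in every library. The sum was not called by limma (log2 fold change 0.22 ± 0.13 SE, adjusted p = 0.201), but it was called higher in 1 of the 18 alternatives. Between the thymosins, the log2 ratio of Tmsb10 to Tmsb4x was -4.76 ± 0.22 at 1 week and -4.57 ± 0.16 with no delay, and the groups overlapped (exact permutation p = 0.2286, adjusted 0.343).

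The severing protein cofilin was abundant and was not called. Cfl1, the cofilin of non-muscle cells, had 1199, 1418, 1317 and 1199 CPM at 1 week, against 1230.4, 1236, 1343 and 1037 CPM with no delay. The groups overlapped widely, with 1283 ± 106 CPM at 1 week and 1211 ± 128 CPM with no delay (SD, n = 4 each). Cfl1 had a log2 fold change of 0.09, with a 95% interval of -0.12 to 0.29 and an adjusted p of 0.508 by limma. Cfl2, the cofilin named for muscle, averaged 81.8 ± 1.77 CPM at 1 week and 76.6 ± 2.47 CPM with no delay and was not called either (adjusted p = 0.224 by limma). The cofilin ratio, Cfl1 over Cfl2 on the log2 scale, was 3.95 ± 0.10 at 1 week and 3.96 ± 0.18 with no delay (SD, n = 4 each).

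Some subunits of the Arp2/3 complex are encoded by alternative paralogs, and its genes differed from each other. Arpc1b encodes the form of the ARPC1 subunit known from human immunodeficiency as the one of blood cells. It had 62.9, 86.5, 66.1 and 59.0 CPM at 1 week, against 14.8, 12.4, 18.7 and 14.1 CPM with no delay. The lowest 1-week library was more than 3-fold above the highest no-delay library. The means were 68.6 ± 12.2 CPM at 1 week and 15.0 ± 2.66 CPM with no delay (SD, n = 4 each). The log2 fold change was 2.12 ± 0.13 (SE), with an adjusted p of 2.5e-07 by limma, and over the 18 alternatives it ran from 1.88 to 2.23 and stayed called.

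Arpc1a, the more widely expressed paralog, had 146, 149, 153 and 139.8 CPM at 1 week, against 147, 118, 125 and 129 CPM with no delay. The groups overlapped, and limma did not call it (log2 fold change 0.18, 95% interval 0.02 to 0.34, adjusted p = 0.0736). Arpc1b therefore made up 29.7% to 36.7% of the reads of the pair at 1 week and 9.09% to 13% with no delay. The log2 ratio of Arpc1b to Arpc1a was -1.20, -0.78, -1.20 and -1.23 at 1 week, against -3.24, -3.15, -2.68 and -3.11 with no delay. The groups did not overlap, and the difference of 1.94 is a 3.85-fold shift (exact permutation p = 0.0286, adjusted 0.0643). Arpc1b alone already separated the groups and Arpc1a varied little, so the p-value of the ratio adds nothing to that.

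The other members of the complex among the 10 genes were not called. Arpc2, which binds the side of the mother filament, had 342, 323, 355 and 357 CPM at 1 week, against 375, 335, 356 and 363 CPM with no delay. Its groups overlapped, and the log2 fold change was -0.05 with a 95% interval of -0.19 to 0.08 (adjusted p = 0.531 by limma). Arpc3, a small subunit of the complex, had 221, 221, 195 and 181 CPM at 1 week, against 176, 185, 196 and 177 CPM with no delay. The 1-week libraries acagtg and atcacg were above all no-delay libraries, and cgatgt and tgacca were not. The log2 fold change of Arpc3 was 0.15 with a 95% interval of -0.01 to 0.32 (adjusted p = 0.138 by limma), and without the 1-week library tgacca the adjusted p was 0.038.

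Of all 10 Arp2/3 genes, 2 were called higher, 0 lower and 8 were not called, with a median log2 fold change of 0.06, close to that of all genes tested. The second of the 2 was Arpc4, a core subunit, at 82.0 ± 7.95 CPM at 1 week and 65.4 ± 2.79 CPM with no delay (log2 fold change 0.32 ± 0.08 SE, adjusted p = 0.00581 by limma). The actin-related proteins Actr2 and Actr3, which form the template of the new branch, averaged 699 and 126 CPM at 1 week and 714 and 130.4 CPM with no delay, and neither was called. Actr3b, a paralog of Actr3, averaged 154 CPM at 1 week and 170.3 CPM with no delay (adjusted p = 0.0865 by limma), and was called lower in 5 of the 18 alternatives, with TMM scaling, median-of-ratios scaling, library weights, edgeR and DESeq2. Arpc5 averaged 157 ± 8.51 CPM at 1 week and 137 ± 17.8 CPM with no delay, and its paralog Arpc5l averaged 179 ± 3.64 CPM at 1 week and 186 ± 12.95 CPM with no delay, with neither called. Arpc5 was called higher in 3 of the 18 alternatives, as was Arpc1a. The log2 ratio of the pair, Arpc5 over Arpc5l, was -0.18 ± 0.07 at 1 week and -0.44 ± 0.09 with no delay without overlap (exact permutation p = 0.0286, adjusted 0.0643).

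**Figure D3:**
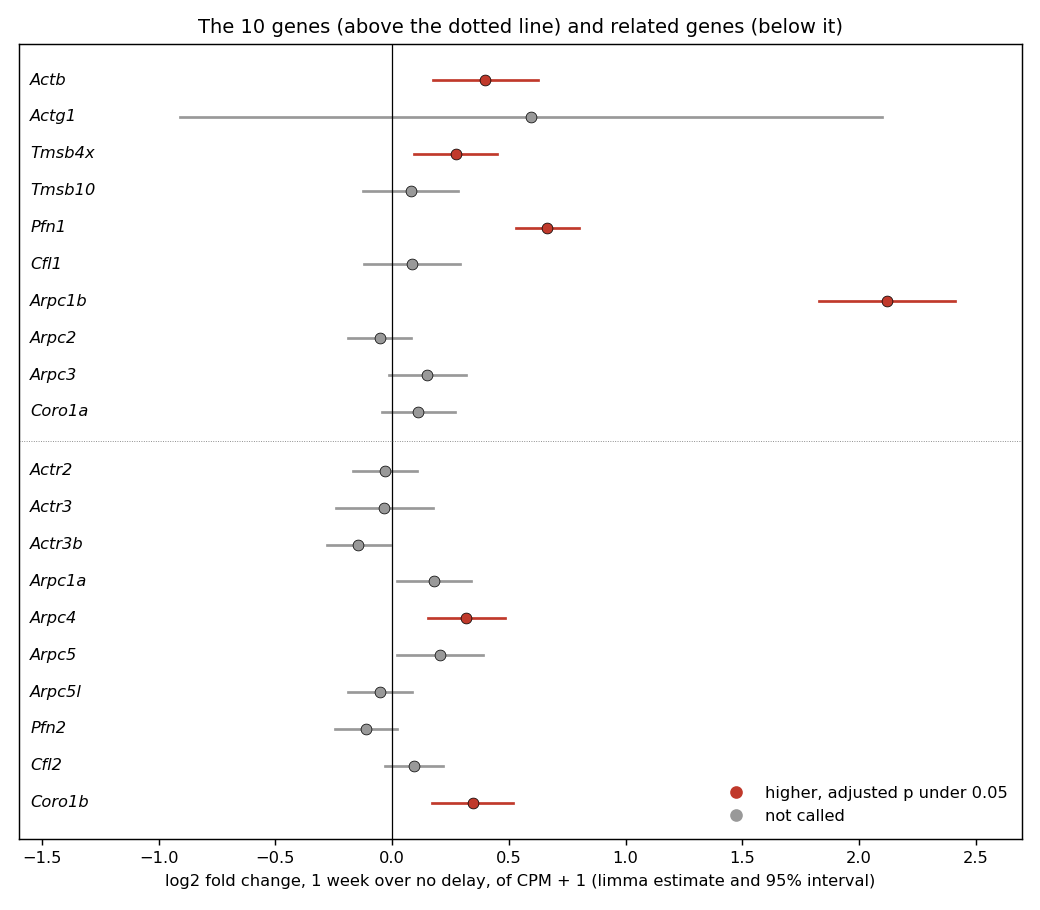
Log2 fold changes (1 week over no delay) of the 10 genes and of related subunits and paralogs, with limma's 95% intervals, red where called higher and grey where not called. Arpc1b stands at 2.12, Pfn1 at 0.67, and the interval of Actg1 runs from -0.91 to 2.10.

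Coro1a, a coronin known as a marker of leukocytes and microglia that binds filaments and the Arp2/3 complex, was not called. It had 75.4, 72.6, 73.5 and 63.6 CPM at 1 week, against 69.0, 66.8, 66.2 and 61.1 CPM with no delay. The groups overlapped only through the 1-week library tgacca, which lay below 3 of the no-delay libraries. The means were 71.3 ± 5.24 CPM at 1 week and 65.8 ± 3.35 CPM with no delay (SD, n = 4 each). The log2 fold change was 0.11, with a 95% interval of -0.04 to 0.27 and an adjusted p of 0.244 by limma, and none of the 18 alternatives called it.

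The level of Coro1a did not follow the summed microglial markers, whose mean was 3.71-fold higher at 1 week. For each 1000 CPM of microglial markers there were 32.5 to 43.1 CPM of Coro1a at 1 week and 123 to 139.6 CPM with no delay. The log2 ratio of Coro1a to the marker sum was -4.66 ± 0.18 at 1 week and -2.90 ± 0.08 with no delay, a difference of -1.76 without overlap (exact permutation p = 0.0286, adjusted 0.0643). The marker sums alone were already without overlap, at 1578 to 2232 CPM at 1 week and 494 to 502.9 CPM with no delay. Any gene that changed as little as Coro1a would separate in this ratio, so its p-value says nothing particular to Coro1a. Arpc1b kept closer to the markers, with 36.0 to 38.7 CPM per 1000 CPM of markers at 1 week and 25.2 to 37.2 CPM with no delay. The part of cell numbers in these levels was not tested.

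Other coronins moved by smaller amounts than Arpc1b. Coro1b, a coronin of lamellipodia in many cells, averaged 47.2 ± 3.23 CPM at 1 week and 37.0 ± 3.02 CPM with no delay (log2 fold change 0.34, adjusted p = 0.00529 by limma). Coro2a was lower, at 18.6 ± 0.865 CPM at 1 week and 24.8 ± 2.50 CPM with no delay (log2 fold change -0.39, adjusted p = 0.0049 by limma). Coro7, a coronin of the Golgi, averaged 42.2 ± 4.66 CPM at 1 week and 33.3 ± 6.23 CPM with no delay and was called higher (log2 fold change 0.34, adjusted p = 0.0417 by limma), but that call was lost in 12 of the 18 alternatives. Coro1c, Coro2b and Coro6 were not called, with log2 fold changes of 0.12, -0.15 and 0.03. The groups of Coro2b did not overlap, and it was called lower in 6 of the 18 alternatives, with DESeq2 at an adjusted p of 0.00755. The ratio of Coro1a to Coro1b did not separate the groups (exact permutation p = 0.0857, adjusted 0.154).

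**Figure D4:**
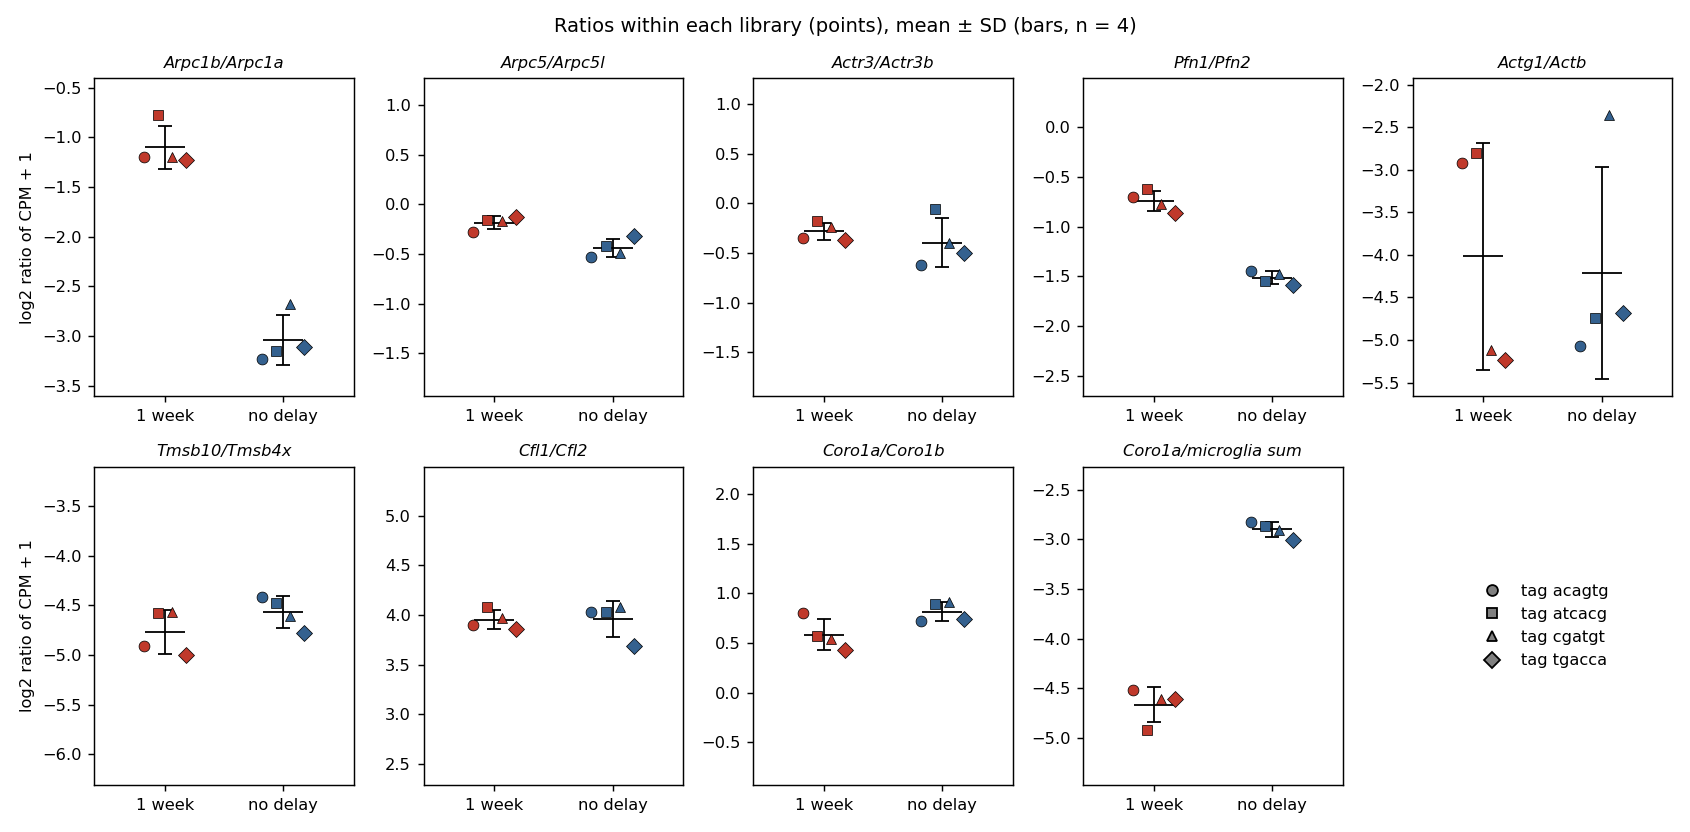
Log2 ratios of CPM + 1 between paralogs within each library (points), and of Coro1a to the summed microglial markers, with group mean and SD (n = 4). The groups separate for Arpc1b/Arpc1a, Arpc5/Arpc5l, Pfn1/Pfn2 and Coro1a/microglial sum, and overlap in the other 5 panels.

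The 10 genes differed widely in level. At 1 week the order of means was Actb, Tmsb4x, Cfl1, Arpc2, Pfn1, Actg1, Arpc3, Coro1a, Arpc1b and Tmsb10, and with no delay Arpc1b was last, below Tmsb10. The place of Actg1 is not firm, since in 2 of the 1-week libraries it lay above Arpc2 and in the other 2 below Arpc3, and its sum with Gm12715 lay beside Tmsb4x. The ranges of Coro1a, Arpc1b and Tmsb10 overlapped with each other at 1 week, so their order there is not firm. The place of Tmsb10 also rests on its own row alone. Its sum with Gm9844 averaged 316 CPM at 1 week and 269.8 CPM with no delay, above Arpc3 and Coro1a in both groups. With no delay, Arpc1b lay below every value of the other 9. Together the 10 genes took 0.703% to 0.869% of the reads in the gene rows of each library at 1 week and 0.587% to 0.704% with no delay. These shares include the uneven Actg1 row. Without Actg1 the sum of the genes was 6947 to 8136 CPM at 1 week and 5781 to 6492 CPM with no delay.

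The wider actin machinery was covered by 13 lists, of which 145 genes were tested. In all, 56 (38.6%) were higher, 19 (13.1%) were lower and 70 were not called, with a median log2 fold change of 0.15. Without the 10 genes, 52 of 135 were higher and 19 were lower. The share called lower was close to the 13.4% of all genes tested, and the share called higher was above the 23.4% of all genes. No test of the lists was made. They were chosen with earlier results of these data known, so these shares describe these lists alone.

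Further monomer-binding genes moved in both directions. Of 11 tested, 4 were called higher and 1 lower. Twf1, twinfilin, averaged 61.3 ± 5.98 CPM at 1 week and 43.0 ± 1.39 CPM with no delay (log2 fold change 0.50, adjusted p = 3.3e-04 by limma). The cyclase-associated proteins, which recycle monomers, went opposite ways. Cap1 averaged 308 ± 32.1 CPM at 1 week and 254 ± 8.60 CPM with no delay (log2 fold change 0.27, adjusted p = 0.0142 by limma), a call lost with median-of-ratios scaling and edgeR. Cap2, the form of brain and muscle, averaged 291 ± 16.7 CPM at 1 week and 382 ± 11.5 CPM with no delay (log2 fold change -0.39, adjusted p = 3.5e-04 by limma). Among 10 genes of the cofilin family and its regulators 1 was higher and 2 were lower. Pdxp, a phosphatase that activates cofilin, fell to 93.3 CPM at 1 week, against 132 CPM with no delay, and Limk1, a kinase that inactivates cofilin, fell to 44.4 CPM at 1 week, against 60.7 CPM with no delay. Ssh2, a slingshot phosphatase that activates cofilin, rose to 66.4 CPM at 1 week, against 51.7 CPM with no delay.

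Activators of the Arp2/3 complex moved in both directions. Of 17 WASP and WAVE genes 6 were called higher, 4 lower and 7 were not called. Nckap1l, the blood-cell form of a WAVE complex subunit, averaged 26.3 ± 3.71 CPM at 1 week and 5.54 ± 0.508 CPM with no delay (log2 fold change 2.05, adjusted p = 1.1e-07 by limma). Was, the blood-cell WASP, averaged 6.72 ± 1.47 CPM at 1 week and 1.24 ± 0.401 CPM with no delay (log2 fold change 1.78). With no delay Was lay at 0.99 to 1.84 CPM. It passed the filter on low values, and entered the count of 6, only with its 1-week values. Abi3, an Abi protein found in microglia, averaged 17.3 ± 1.87 CPM at 1 week and 4.66 ± 0.773 CPM with no delay (log2 fold change 1.70). The 4 that fell were Wasf1, Nckap1, Abi2 and Wipf3, with log2 fold changes of -0.57, -0.46, -0.33 and -0.26, named after their values were seen. Wasf1 is known as the WAVE protein of brain and Nckap1 as the counterpart of Nckap1l outside blood cells.

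Of 13 formins and Ena/VASP proteins, which lengthen unbranched filaments, 5 were higher and 0 lower. Vasp averaged 26.2 CPM at 1 week and 12.5 CPM with no delay, Fmnl3 21.5 CPM at 1 week and 12.8 CPM with no delay, and Diap3 (Diaph3) 2.72 CPM at 1 week and 0.555 CPM with no delay. Diap3 was below 1 CPM in every no-delay library and entered the test, and the count of 5, only through its 1-week values.

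Of 12 capping and severing genes 6 were higher and 1 was lower. Capg, a capping protein of macrophages, averaged 9.38 CPM at 1 week and 2.08 CPM with no delay, Gsn, gelsolin, 39.4 CPM at 1 week and 16.5 CPM with no delay, and Add3, adducin, 153 CPM at 1 week and 71.0 CPM with no delay. Of 11 cross-linkers 4 were higher and 2 were lower. Lcp1, the plastin of leukocytes, averaged 28.2 CPM at 1 week and 4.84 CPM with no delay, and the filamin Flnc 3.93 CPM at 1 week and 0.573 CPM with no delay. Flnc too was below 1 CPM in every no-delay library and passed the filter only through the 1-week group. The more abundant filamin Flna lay at 55.9 to 63.3 CPM at 1 week and 34.5 to 46.0 CPM with no delay. Of 9 tested genes that link filaments to the membrane 6 were higher and 0 lower. Msn, moesin, averaged 61.9 CPM at 1 week and 13.2 CPM with no delay, Fermt3, the kindlin of blood cells, 12.3 CPM at 1 week and 3.42 CPM with no delay, and Vcl, vinculin, 48.0 CPM at 1 week and 24.5 CPM with no delay. Apart from Diap3 and Flnc, the genes named from the formin, capping, cross-linker and linker lists had adjusted p-values of 0.00263 or less by limma.

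Of 14 non-muscle myosins and tropomyosins 8 were higher and 0 lower. Myo1f, a myosin of leukocytes, had 19.1, 25.3, 18.9 and 17.3 CPM at 1 week, against 2.46, 1.92, 1.98 and 2.29 CPM with no delay (log2 fold change 2.73, adjusted p = 5.7e-08 by limma). Myo1e averaged 21.6 CPM at 1 week and 9.53 CPM with no delay, and Myh9, a heavy chain of non-muscle myosin II, 125 CPM at 1 week and 77.7 CPM with no delay. Smooth muscle actin, Acta2, was not called and had 19.1, 10.8, 8 and 29.97 CPM at 1 week, against 16.6, 14.0, 19.6 and 14.8 CPM with no delay. Its 1-week libraries lay on both sides of the no-delay range.

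The list of dendritic spine regulators was the one with a negative median, -0.23, with 1 of 11 genes called higher, 5 lower and 5 not called. Shank1, a scaffold of the postsynaptic density, averaged 170.2 ± 19.9 CPM at 1 week and 252 ± 6.23 CPM with no delay (log2 fold change -0.57, adjusted p = 1.6e-04 by limma). Spna2 (Sptan1), alpha-II spectrin, averaged 332 ± 21.1 CPM at 1 week and 452 ± 12.3 CPM with no delay (log2 fold change -0.45, adjusted p = 1.6e-04 by limma). The others that fell, named after their values were seen, were the spinophilin gene Ppp1r9b, the synaptopodin gene Synpo and the neurabin gene Ppp1r9a, with log2 fold changes of -0.42, -0.33 and -0.27. The gene that rose was Srgap2, which shapes spines and also acts in microglia, at 39.0 CPM at 1 week and 24.2 CPM with no delay. How far these values follow the neuronal and microglial marker sums was not tested.

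**Figure D5:**
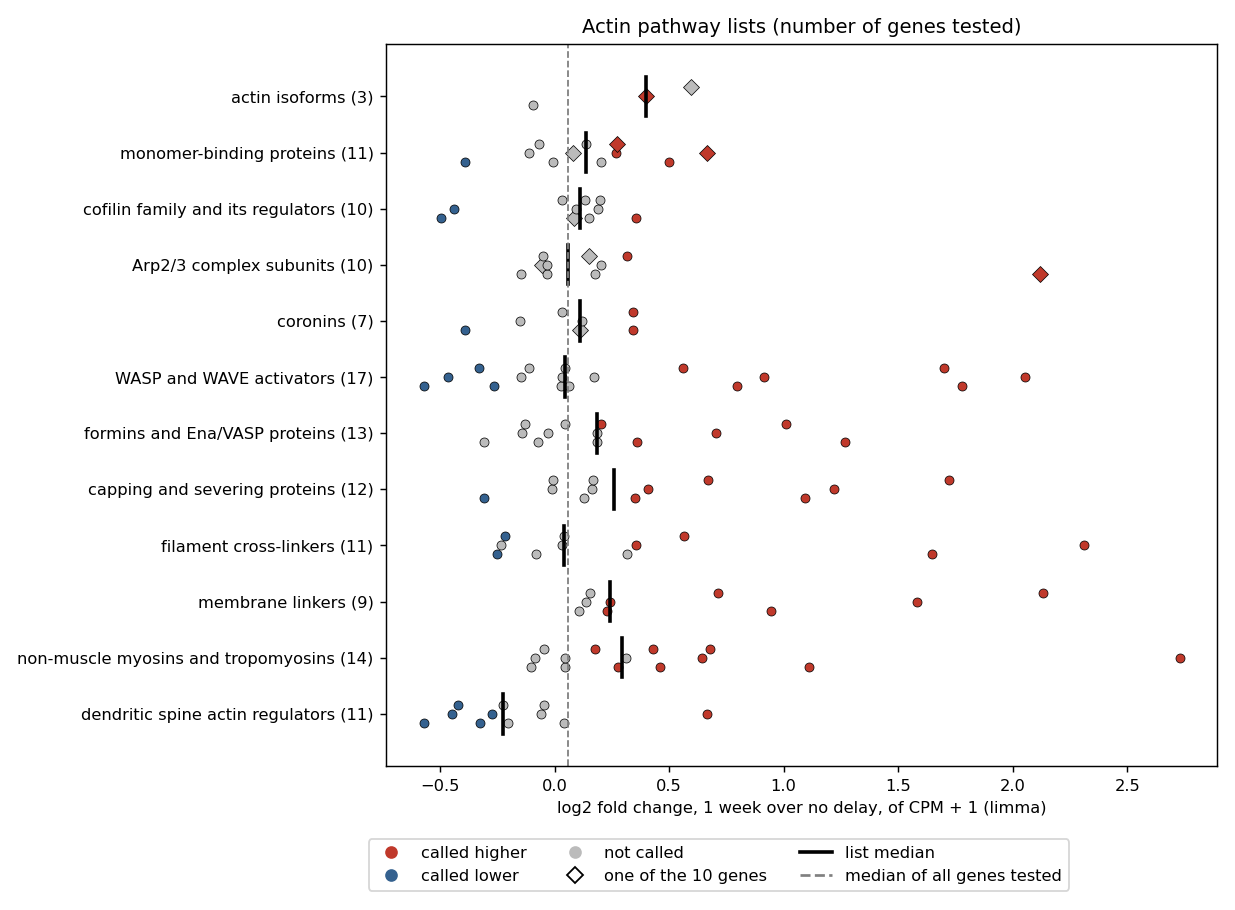
Log2 fold changes (1 week over no delay, of CPM + 1) of the genes tested in each of 12 actin lists, 1 point per gene, with the list median (bar) and the median of all genes tested (dashed line, 0.06). The 10 genes are diamonds, and the spine list has a median of -0.23.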

How the data were processed

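CAGE was used on total RNA from 8 samples, 4 per group, and sequenced as single reads of 75 nt, per the labels' protocols. The deposited values are CPM per gene symbol. The aligner BWA 0.5.9 and the build mm9 are named in the submitters' processing notes. How tags were assigned to genes, and whether strand was used, is not given in the sources used here. Columns name the group and a tag but no replicate number, so each was assigned to its group. All values are whole multiples of 1 read within 0.1 reads (100%), so reads could be recovered. Each of the 10 genes had at least 135 reads in every library.

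After a filter that asked for at least 1 CPM in 4 or more libraries, 14718 genes were left. They were tested on log2(CPM + 1) in limma 3.58.1 (R 4.3.3) with its mean-variance trend, 2-sided, with Benjamini-Hochberg adjustment and a threshold of 0.05. Fold changes on this scale understate the change of genes with few reads. Ratios within libraries were compared with an exact permutation test over the 70 arrangements. Reads were tested with edgeR 4.0.16 and DESeq2 1.42.0 as alternatives. The procedure was tested on simulated data. The 10 genes and all lists were chosen with earlier results of these data known.

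Named were the 10 genes, every actin isoform, Arp2/3 gene, coronin and ratio partner, and in each other list the 3 called genes with the largest absolute log2 fold change. Of 153 list entries 146 matched a row, some by synonym, and the others were not analysed here. Sequences are RefSeq windows on GRCm38.p6; near-identical copies were found with blastn among GENCODE M21 transcripts, at 95% identity over 60 of the first 75 bases. The genes of 1 list enter the totals over the lists and are otherwise not reported here.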

Additional observations from a re-analysis of the deposited data

Results flagged for a closer look

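The values given here, 7 in all, stood apart from the other 3 libraries of their group by a gap test at the 95% level, which by chance flags about 1 in 20 groups. The test was run in both groups for the 56 named genes and the 9 ratios. A number of flags near the 7 found is therefore expected by chance. Actg1 in the no-delay library cgatgt had 545.01 CPM, against 80.1 to 92.3 CPM in the others. The log2 ratio of Actg1 to Actb in that library was accordingly -2.36, against -5.07 to -4.69. In the same library the row of the pseudogene Gm12715 was the lowest of its group, at 1091 CPM.

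Arpc5 had 163.69 CPM in the no-delay library tgacca, against 126 to 131 CPM in the others, and without that library its adjusted p by limma was 0.00514. In the no-delay library tgacca the log2 ratio of Cfl1 to Cfl2 was 3.69, against 4.03 to 4.09. In the 1-week library atcacg the log2 ratio of Arpc1b to Arpc1a was -0.778, against -1.23 to -1.20, and Capg had 13.52 CPM, against 7.93 to 8.09 CPM. That library also had the highest sum of microglial markers, 2232 CPM. Was had 1.84 CPM in the no-delay library acagtg, against 0.99 to 1.10 CPM.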

How the results depend on the processing

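Of the 56 named genes, 46 kept their call in every alternative in which they were tested, among them 7 of the 10 actin genes. That was 18 alternatives, but 13 for Diap3 and Flnc, which the filter removed from the others. The number of the 10 called (all higher) was 2 with quantile normalization, 3 with TMM scaling, median-of-ratios scaling, edgeR, without the no-delay library acagtg and without the 1-week library acagtg, 5 without the 1-week library tgacca, and 4 in the others, including the sums with near-identical copies added after the data were seen. With each library left out in turn it was 3 to 5. Genes called lower numbered 1971 as reported and 3211 with quantile normalization. Over all genes, the median log2 fold change was 0.06 as reported, -0.04 after quantile normalization, 0.01 after TMM scaling and 0.00 after median-of-ratios scaling. The share of called genes that were higher was 63.6% as reported, 43.4% with quantile normalization, 51.4% with median-of-ratios scaling, 53.2% with TMM scaling and also with edgeR, and 50.3% with DESeq2. The uncalled log2 fold changes of Cfl1 and Arpc2 changed sign in 1 alternative each. Leaving out a library leaves 3 samples against 4, and exact tests of the ratios on those samples are not reported here. No paired analysis was possible because the columns carry no replicate number. Without uninjured or sorted cells, the source of a difference cannot be told from these data.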
